A study of Homo sapiens with 3 samples.

Results

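Regions bound by RNA polymerase II (Pol II) were described along 4 long human genes, NEDD4L, PRKD1, PPP3CA and GULP1, in which the Pol II list from cells given the CK2 inhibitor TBBz held strings of regions. The members were all regions whose centre lay in 4 windows of hg19, one around each gene: chr18:55700000-56075000 for NEDD4L, chr14:30040000-30405000 for PRKD1, chr4:101940000-102275000 for PPP3CA and chr2:189145000-189465000 for GULP1. NEDD4L and GULP1 are transcribed from the plus strand and PRKD1 and PPP3CA from the minus strand. The windows held 111 of the 59983 regions of the study: 82 of 24782 for Pol II with TBBz, 26 of 21819 for Pol II with the vehicle DMSO, and 3 of 13382 for CK2α. The genes were selected on the number of Pol II regions with TBBz against DMSO, so the numbers of Pol II regions and their comparison between TBBz and DMSO are given as a description, with no test.

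The cells were LNCaP, an androgen-responsive line from a human prostate carcinoma, kept in 5% charcoal-stripped serum for 3 days before the androgen dihydrotestosterone (DHT, 100 nM). In each group 1 library was made. The Pol II groups received DMSO or 25 μM TBBz over 2.5 hours, and DHT was added for the last 1.5 hours of that time. The label of the vehicle group gives the DMSO as 25 μM. The labels of the CK2α group give DHT and no inhibitor; its treatment label gives 2.5 hours of DHT and its protocol gives 90 min. Both Pol II libraries carry a source label that names TBBz, so they are told apart by their treatment labels, and no value here checks that assignment. The lists hold no expression values, so the cell line was not checked against markers.

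Pol II starts transcription at a promoter, usually halts a short way downstream, and is then released to travel through the gene. On a long gene it needs a long time to reach the end, so its position along the gene reports on initiation, release and elongation together. CK2 is a constitutively active serine/threonine kinase that phosphorylates many nuclear proteins, and TBBz is a brominated benzimidazole that occupies its ATP site. NEDD4L is a HECT-type E3 ubiquitin ligase known for removing the epithelial sodium channel from the cell surface. PRKD1 is protein kinase D1, a serine/threonine kinase activated downstream of diacylglycerol. PPP3CA is a catalytic subunit of calcineurin, the calcium- and calmodulin-dependent phosphatase that activates NFAT factors, and GULP1 is an adaptor protein involved in the engulfment of dying cells. No hg19 gene annotation was used here, so regions were not assigned to exons or introns.

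The sequences below show how some annotated starts of these genes, which may not be the starts in use here, differ in base composition. RefSeq promoters of GRCh38.p14, each 300 bases long from 250 before to 50 after an annotated start, were found for 3 of the 4 genes. They are shown 5′ to 3′ on the strand of the gene, with CG dinucleotides in capitals. The first 2 are starts of PRKD1 and GULP1, and the others are 2 of the 5 starts that RefSeq gives for NEDD4L, the second and the fourth along the gene, shown for the spacing described with the NEDD4L regions. None of the sequences was placed on a Pol II region, since the builds differ. In what follows, the start site of a gene is the first DMSO region from the upstream edge of its window, since no start annotated in hg19 was used.
PRKD1, chr14:29927798-29928097 (GRCh38.p14, minus strand): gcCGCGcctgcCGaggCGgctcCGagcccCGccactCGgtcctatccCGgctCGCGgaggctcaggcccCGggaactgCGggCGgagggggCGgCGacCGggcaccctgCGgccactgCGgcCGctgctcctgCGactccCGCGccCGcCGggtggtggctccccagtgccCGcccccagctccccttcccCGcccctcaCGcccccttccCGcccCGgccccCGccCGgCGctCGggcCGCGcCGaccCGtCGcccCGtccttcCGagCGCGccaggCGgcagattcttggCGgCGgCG
GULP1, chr2:188291624-188291923 (GRCh38.p14, plus strand): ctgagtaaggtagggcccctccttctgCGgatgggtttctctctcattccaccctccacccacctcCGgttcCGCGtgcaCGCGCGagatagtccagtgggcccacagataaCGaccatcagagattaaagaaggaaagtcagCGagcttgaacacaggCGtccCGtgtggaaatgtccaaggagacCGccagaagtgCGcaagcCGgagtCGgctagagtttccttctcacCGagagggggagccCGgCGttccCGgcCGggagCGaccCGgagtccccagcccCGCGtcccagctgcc
NEDD4L, the second start, chr18:58149070-58149369 (GRCh38.p14, plus strand): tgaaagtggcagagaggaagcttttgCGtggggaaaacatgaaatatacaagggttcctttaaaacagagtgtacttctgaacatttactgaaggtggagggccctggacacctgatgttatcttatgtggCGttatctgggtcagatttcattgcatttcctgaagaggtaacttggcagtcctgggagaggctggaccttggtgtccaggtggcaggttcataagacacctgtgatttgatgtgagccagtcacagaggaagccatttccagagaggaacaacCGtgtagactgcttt
NEDD4L, the fourth start, chr18:58221321-58221620 (GRCh38.p14, plus strand): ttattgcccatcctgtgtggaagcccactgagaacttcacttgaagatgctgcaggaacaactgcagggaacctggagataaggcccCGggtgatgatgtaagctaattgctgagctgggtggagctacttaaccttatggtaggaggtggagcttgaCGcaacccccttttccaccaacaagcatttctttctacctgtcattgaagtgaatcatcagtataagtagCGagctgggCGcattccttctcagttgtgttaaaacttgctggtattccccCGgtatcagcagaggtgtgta
RefSeq gives 2 starts for PRKD1, and the printed promoter is that of the upstream one. It held 46 CG dinucleotides, more than 97.1% of the 35116 promoters of this length, the other PRKD1 promoter held 37 (more than 88.7%), and the GULP1 promoter held 24. The printed NEDD4L promoters held 3 and 5, the lowest of the 5 for that gene, and the other NEDD4L promoters held 7 each, against a median of 14 over all promoters. Whether any of the 5 belongs to the Pol II regions at the upstream end of NEDD4L was not tested. The TATA motif TATAAA, searched on both strands, was in none of the 8 promoters found for these genes and in 11.5% of all promoters. The androgen receptor half-site AGAACA, also searched on both strands, was in the first NEDD4L promoter alone, which is not printed, and in 14.8% of all promoters.

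The CK2α library had 19021404 tags, the DMSO library 15466579 and the TBBz library 22345614. Regions held 6.79% of the DMSO tags and 12.6% of the TBBz tags. Scaling to library totals leaves this difference in the tag ratios given below. The tag threshold in the file headers is 11 with DMSO and 13 with TBBz, which is 7.11 and 5.82 tags per 10M library tags (written per 10M below), so weaker sites could enter the TBBz list. The deposited score is 1 for every region, but the number of tags in each region could be recovered from the order of the lists. Each list ran through the chromosomes in order again and again, as a list does when regions with equal tags are sorted by position, and each return to an earlier position marked the next lower number of tags. With the most populated level set to the tag threshold in the file header, the recovered tags summed to 2814535 for TBBz, against 2814886 tags in regions per the header, and to 1048572 against 1050304 for DMSO and 310943 against 313973 for CK2α. A shift of the whole list by 1 tag would move the TBBz sum by 24782. The remainder limits the error: beyond place 351 of the TBBz list, 1732 of the DMSO list and 3030 of the CK2α list the number is exact under this reading, and for earlier regions a lower and an upper value are given. By these values the threshold was no strict limit, since 650 DMSO regions (2.98%) and 748 TBBz regions (3.02%) lay up to 3 tags below it. None of the Pol II regions in the 4 windows did.

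With TBBz the 4 windows held 29 regions in NEDD4L, 17 in PRKD1, 14 in PPP3CA and 22 in GULP1. With DMSO they held 5, 6, 2 and 13. The ratio of TBBz to DMSO regions was 3.15 over the 4 windows and 1.14 for the whole lists. By gene it was 7.0 in PPP3CA, 5.80 in NEDD4L, 2.83 in PRKD1 and 1.69 in GULP1. The genes were selected on this quantity, so it is given without an interval, and with 1 library per group no spread between replicates is known. Among the 18 tiles of 100 kb that touch the windows, 5 had at least 5 more TBBz than DMSO regions, as had 0.487% of all tiles of 100 kb with a Pol II region. Nothing is read from these values, since such tiles led to the choice of the genes. When only the first 50% of each list was used, the ratio was 1.67 and the order of the genes changed. NEDD4L then held 7 TBBz and 4 DMSO regions, PRKD1 3 and 2, PPP3CA 2 and 2, and GULP1 3 and 1, so PPP3CA had no excess left.

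**Figure D1:**
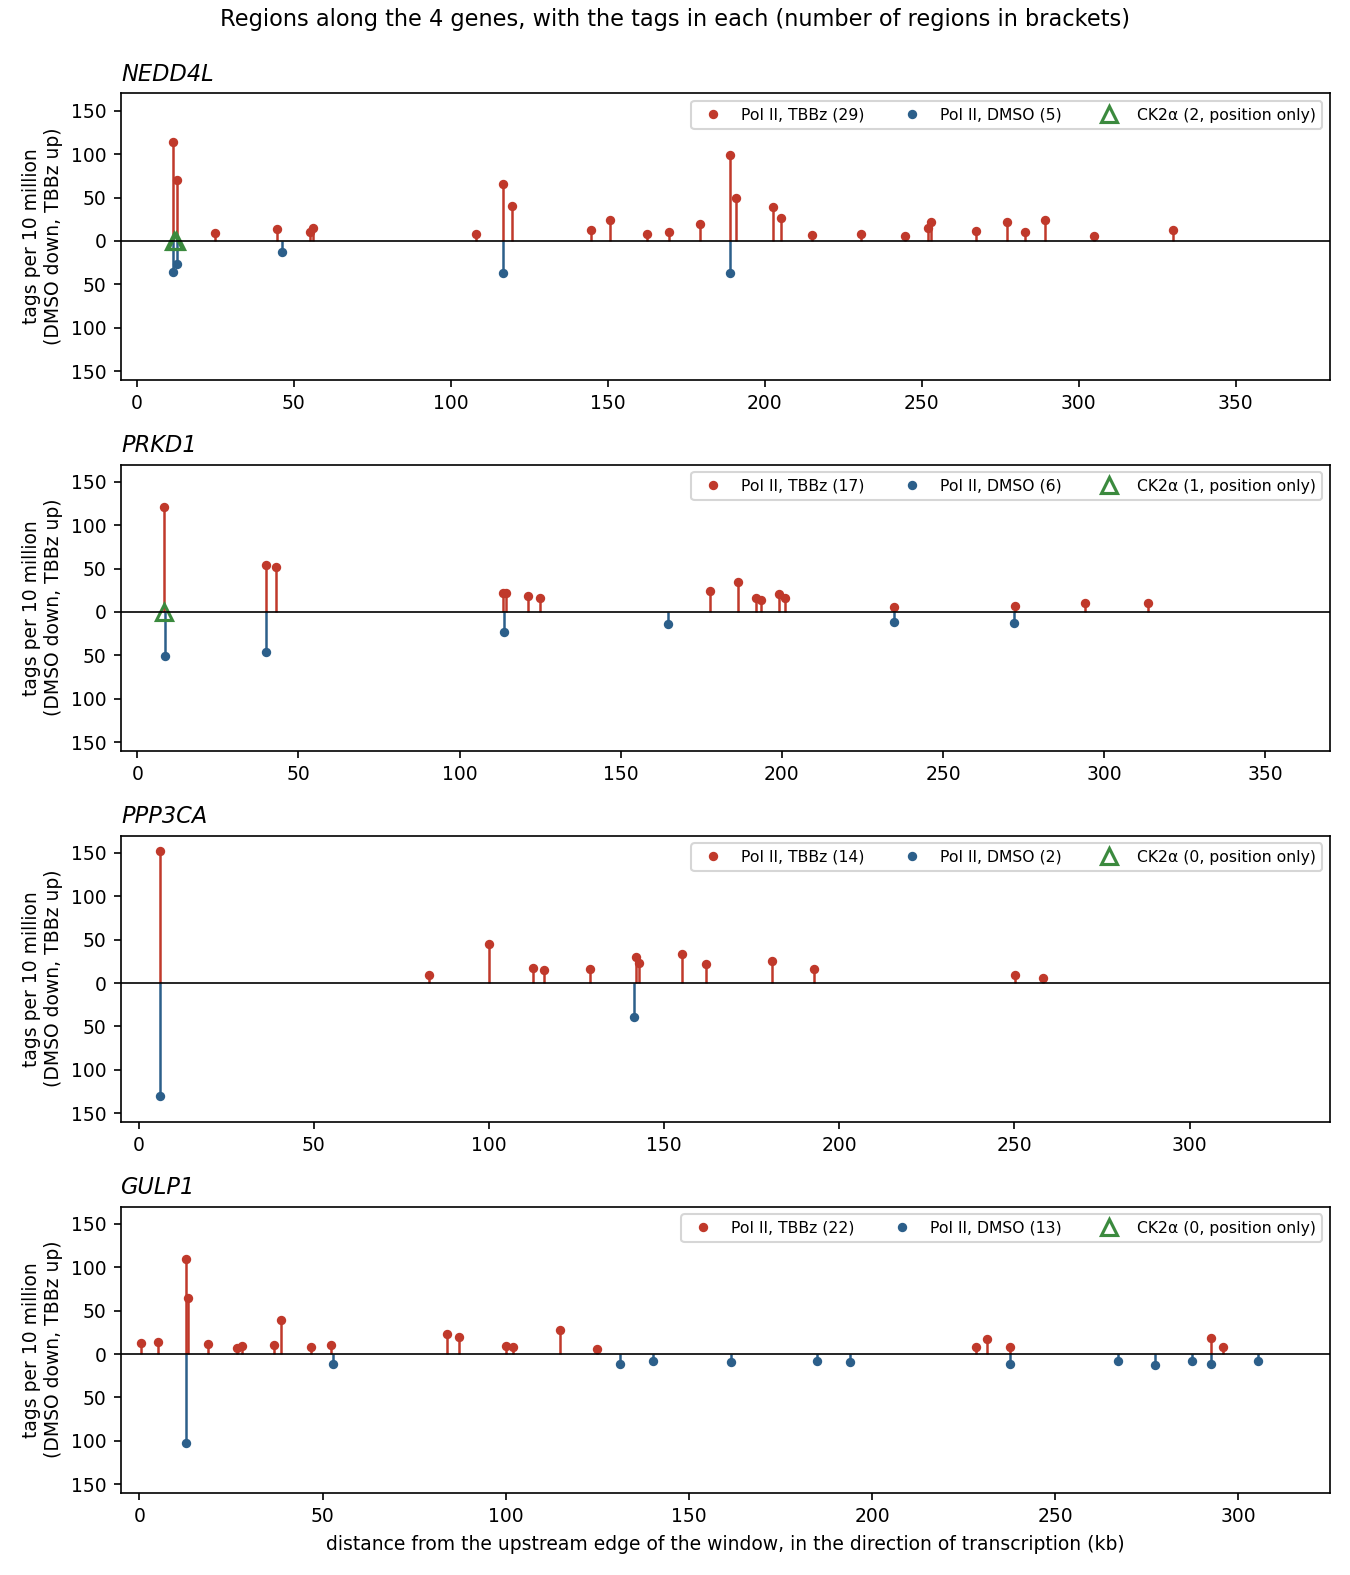
Tags per 10M library tags in each Pol II region, against the distance from the upstream edge of each window in kb; TBBz regions point up, DMSO regions point down and open triangles mark the positions of CK2α regions. In all 4 genes the tallest line of each treatment stands near the upstream edge, except with DMSO in NEDD4L. There DMSO lines at 117 and 189 kb are level with the start site, and the second tallest TBBz line, at 99.3, also stands at 189 kb. TBBz lines without a DMSO partner stand in the interior, with stretches free of them that reach 52.0 kb in NEDD4L and 103 kb in GULP1.

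At the upstream end of NEDD4L, Pol II with DMSO stood at chr18:55711505-55711705 with 56 tags and at chr18:55712834-55713034 with 42. Pol II with TBBz stood at the same sites, at chr18:55711509-55711709 with 255 tags and at chr18:55712705-55712905 with 156. Scaled to equal library totals, the first site held 36.2 tags per 10M with DMSO and 114 with TBBz, a ratio of 3.15 (2.35 to 4.29). The intervals of tag ratios are 95%, converted from exact binomial (Clopper-Pearson) intervals, cover counting error only and take no account of how the genes were selected. The second held 27.2 and 69.8, a ratio of 2.57 (1.82 to 3.71). Both TBBz values lay above both DMSO values.

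Inside NEDD4L the DMSO list had 3 more regions. The strongest was chr18:55888722-55888922 with 58 tags, and chr18:55816470-55816670 had 57, both as high as the region at the start. TBBz regions overlapped both, with 222 tags at chr18:55888737-55888937 (ratio 2.65, 1.98 to 3.60) and 147 at chr18:55816520-55816720 (ratio 1.79, 1.31 to 2.47). The centres of the DMSO regions were 72252 bp apart in hg19, and the second and the fourth RefSeq starts printed above are 72251 bp apart in GRCh38. Among the 10 pairs of DMSO regions in the window this was the only pair whose spacing came within 200 bp of a spacing between any of the 5 NEDD4L starts. Of the 406 pairs of TBBz regions, which are many more, other pairs also came that close to a spacing between starts. No position was carried from one build to the other, so these sites were not placed on the starts. The fifth DMSO region of the window, chr18:55746038-55746238 with 19 tags, had its nearest TBBz centre 1468 bp away.

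The remaining 25 of 29 TBBz regions of NEDD4L overlapped no DMSO region, against 35.0% of the whole TBBz list, and 24 of them had no DMSO centre within 2 kb, against 21.1%. The genes were selected on this contrast, so nothing is read from these shares here or below. They held between 13 and 110 tags, with a median of 29. The highest was chr18:55890903-55891103 with 110 tags, 2181 bp downstream of the nearest DMSO centre. Beyond the last DMSO region, at 189 kb from the upstream edge, stood 14 TBBz regions without a DMSO partner, the last of them chr18:56029851-56030051 with 28 tags. With neighbours allowed to be up to 20 kb apart, 19 TBBz regions formed an unbroken string from chr18:55844612-55844812 to chr18:56004942-56005142, over 160 kb, with a single DMSO region in it. The median gap in the string was 9.60 kb. It was the longest string of the 4 genes at this distance, but not under every setting. With neighbours at most 10 kb apart the longest string had 5 regions in NEDD4L, 6 in PRKD1, 2 in PPP3CA and 11 in GULP1. When TBBz regions had to reach the DMSO threshold per 10M tags, and also with equal list lengths, NEDD4L, PPP3CA and GULP1 had 11 each.

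In PRKD1 the start was marked in all 3 lists. Pol II with DMSO stood at chr14:30396399-30396599 with 79 tags, Pol II with TBBz at chr14:30396651-30396851 with 270, and CK2α between them at chr14:30396490-30396690 with 113 to 156 tags. Scaled to equal totals the Pol II values were 51.1 and 121 tags per 10M, a ratio of 2.37 (1.83 to 3.08). The TBBz centre lay 252 bp upstream of the DMSO centre, so the regions did not overlap and both counted as unshared. The next site, 40 kb into the window, was at chr14:30364807-30365007 with 71 DMSO tags and at chr14:30364870-30365070 with 122 TBBz tags. Its ratio of 1.19 (0.881 to 1.62) has an interval that includes 1. A TBBz region without a DMSO partner, chr14:30361755-30361955 with 116 tags, followed 3052 bp downstream of the DMSO centre.

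Farther into PRKD1 the treatments parted. Between 114 and 125 kb from the upstream edge stood 4 TBBz regions with 35 to 50 tags, beside 1 DMSO region, chr14:30290960-30291160 with 35 tags, that lay between the first 2 of them without overlap. A string of 6 TBBz regions ran over 23.1 kb from chr14:30227072-30227272 to chr14:30203997-30204197, with 30 to 76 tags each and no DMSO region in it. A DMSO region with 21 tags, chr14:30240364-30240564, lay 13292 bp upstream of the string. In the downstream part both treatments had weak regions at the same sites. At chr14:30170038-30170238 DMSO had 18 tags and TBBz 14, a ratio of 0.538 (0.248 to 1.15). At chr14:30132864-30133064 they had 20 and 16, a ratio of 0.554 (0.268 to 1.12). Both ratios lie under 1 with intervals that include it. The last TBBz regions, chr14:30110731-30110931 with 24 tags and chr14:30091289-30091489 with 23, had no DMSO partner.

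PPP3CA had one of the strongest Pol II sites of the study at its start and little else with DMSO. The DMSO region chr4:102268922-102269122 stood at place 110 of its list with 201 to 216 tags, and the TBBz region chr4:102268933-102269133 at place 49 with 339 to 346. Scaled to equal totals these were 130 and 152 tags per 10M by the lower values, a ratio of 1.17 (0.978 to 1.40), with an interval that includes 1. Tags at the same position were counted once, which may limit values at such strong sites. The highest recovered values in the lists were 241 for DMSO and 358 for TBBz by the lower values, and 1973 and 709 by the upper values. With each position counted once, a region 200 bp wide cannot hold these upper values, even with both strands counted. By the lower values the TBBz start site, at 339, stood near the highest value of its list, 358. The DMSO start site had 201, against 241. The part of this limit in the ratio was not tested. No Pol II region of either list followed over the next 76.8 kb.

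From 82.8 kb on, 13 TBBz regions stood in PPP3CA with 14 to 100 tags and a median of 38, and none overlapped a DMSO region. Of these, 11 formed a string of 110 kb from chr4:102192117-102192317 to chr4:102082127-102082327. The highest was chr4:102174856-102175056 with 100 tags. The only DMSO region in the string, chr4:102133453-102133653 with 61 tags, had TBBz regions of 66 and 51 tags on its downstream side, 611 and 1250 bp away. The last TBBz regions were chr4:102024749-102024949 with 20 tags and chr4:102016810-102017010 with 14, and the final 76.9 kb of the window held no Pol II region. CK2α had no region in this window, and its region nearest to the TBBz region at the start site, chr4:102711751-102711951, was 442818 bp away.

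In GULP1 the DMSO list held 13 regions, more than in the other genes, and most lay in another stretch than the TBBz regions. This rests on weak DMSO regions: in the first 50% of each list GULP1 kept 1 DMSO region, at the start site, and 3 TBBz regions, all in the upstream 50% of the window. The start was shared: chr2:189157557-189157757 held 159 to 164 DMSO tags and chr2:189157574-189157774 held 245 TBBz tags. Scaled to equal totals these were 103 and 110 tags per 10M by the lower value, a ratio of 1.07 (0.870 to 1.31), with an interval that includes 1. A TBBz region with 145 tags and no DMSO partner, chr2:189158255-189158455, followed 698 bp downstream of the DMSO centre. The TBBz list also had 2 regions upstream of the start, chr2:189145324-189145524 with 28 tags and chr2:189150014-189150214 with 30.

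Of the 22 TBBz regions of GULP1, 17 lay in the upstream 50% of the window (77.3%), and 11 of them formed a string of 52.0 kb from chr2:189145324-189145524 to chr2:189197275-189197475. With the window trimmed by 20 kb at each edge the string had 6 regions. Of the 13 DMSO regions, 4 lay in the upstream 50% (30.8%) and 9 in the downstream 50%, where TBBz had 5. In the 103 kb between chr2:189269768-189269968 and chr2:189373213-189373413 there was no TBBz region, and 5 DMSO regions stood there with 12 to 18 tags. The DMSO regions without a TBBz partner numbered 10 of 13, and all held 12 to 19 tags, near the threshold of 11. For comparison, 26.2% of all DMSO regions had no TBBz partner. Shared sites in the downstream part were chr2:189382519-189382719, with 17 tags in each library, and chr2:189437467-189437667, with 17 DMSO tags and 41 TBBz tags. Their ratios, 0.692 (0.332 to 1.44) and 1.67 (0.928 to 3.13), have intervals that include 1.

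**Figure D2:**
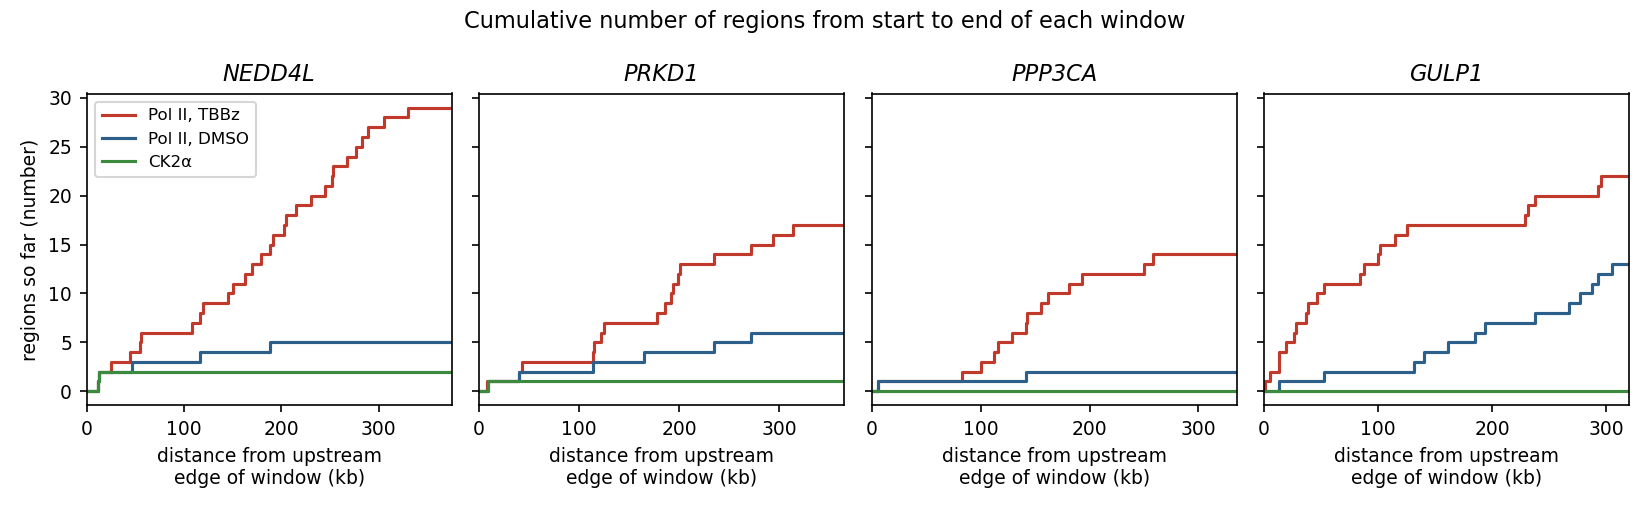
Number of regions counted from the upstream edge of each window (x axis, kb) for Pol II with TBBz, Pol II with DMSO and CK2α. In GULP1 the TBBz line reaches 17 regions by 124.9 kb and then stays level for 103 kb, while the DMSO line has 2 regions by 52.8 kb and climbs to 13 over the rest of the window.

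With each window cut into 4 equal stretches from its upstream to its downstream edge, TBBz regions numbered 6, 8, 11 and 4 in NEDD4L, 3, 5, 7 and 2 in PRKD1, 2, 8, 3 and 1 in PPP3CA, and 11, 6, 3 and 2 in GULP1. The DMSO regions numbered 3, 1, 1 and 0 in NEDD4L, 2, 2, 2 and 0 in PRKD1, 1, 1, 0 and 0 in PPP3CA, and 2, 2, 4 and 5 in GULP1. TBBz regions were thus densest in the interior of NEDD4L, PRKD1 and PPP3CA and at the upstream end of GULP1. In the last stretch GULP1 alone had more DMSO than TBBz regions. In PRKD1 the median tags of the TBBz regions by stretch fell, with 122, 48, 36 and 23.5. Its first stretch held the start site with 270 tags and regions with 122 and 116, and its last held 2 regions. In PPP3CA the medians were 180, 50, 36 and 14, but the first rests on the start site, with 339 to 346 tags, and a region with 21. Apart from the start site, the first stretch of PPP3CA was thus weaker than the second, and the last held 1 region. In NEDD4L, with 31.5, 36, 48 and 26, and in GULP1, with 27, 31.5, 19 and 29, the medians did not fall from stretch to stretch.

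Neighbouring TBBz regions were close together. The median gap was 9.85 kb in NEDD4L, 7.70 kb in PRKD1, 12.6 kb in PPP3CA and 6.26 kb in GULP1. The DMSO gaps were wider, with medians of 51.8 kb in NEDD4L and 50.6 kb in PRKD1, a single gap of 135 kb in PPP3CA, and 17.0 kb in GULP1, as follows from the smaller numbers of regions. Of the 82 TBBz regions, 77 had another TBBz region within 20 kb, against 60.7% of the whole TBBz list. Spacing goes with the number of regions for which the genes were chosen.

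Over the 4 windows 71 of 82 TBBz regions (86.6%) overlapped no DMSO region, against 35.0% of the whole TBBz list. With no DMSO centre within 2 kb there were 62 of 82, against 21.1%. In the other direction 15 of 26 DMSO regions (57.7%) overlapped no TBBz region, against 26.2% of the whole DMSO list, and 10 of these 15 were in GULP1. With no TBBz centre within 2 kb there were 10 of 26, against 13.9%, and 9 of these 10 were in GULP1. The unshared TBBz regions of the 4 windows held a median of 34 tags (13 to 270, the highest being the start site of PRKD1), against 22 for all unshared TBBz regions, while the shared ones held a median of 147 (14 to 339), against 140 for all shared TBBz regions.

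**Figure D3:**
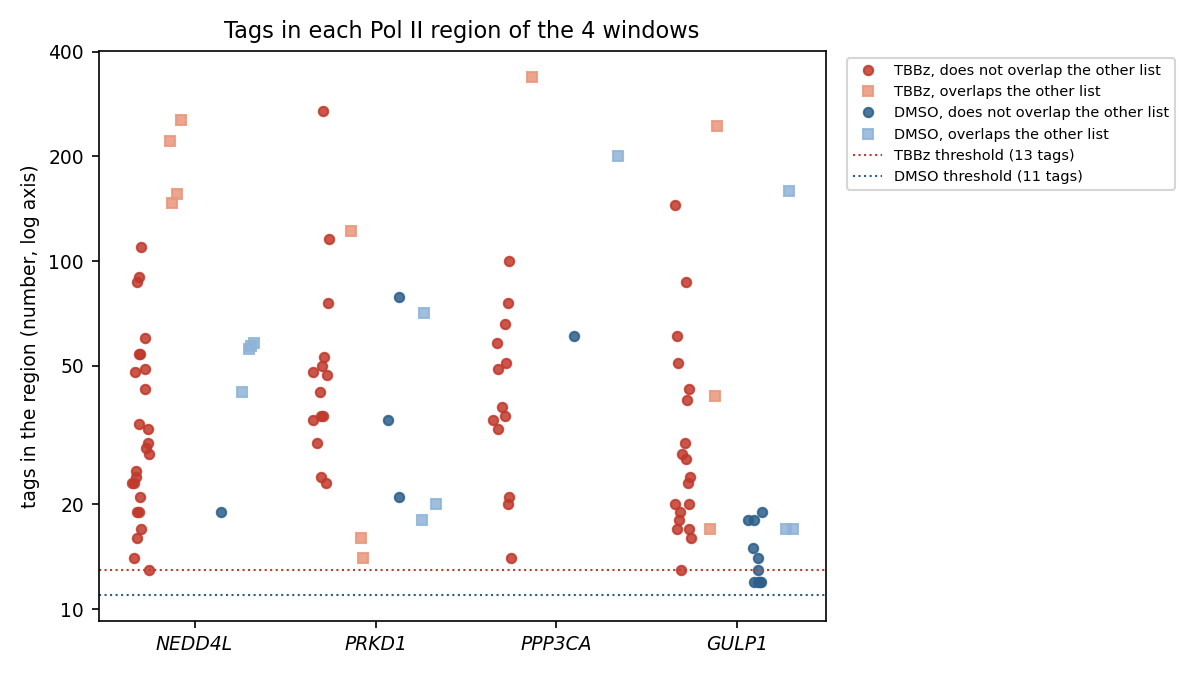
Tags in each Pol II region of the 4 windows on a log axis, by gene, list and overlap with the other list; dotted lines mark the thresholds of 13 tags for TBBz and 11 for DMSO. Unshared DMSO regions of GULP1 lie between 12 and 19 tags, just above the DMSO threshold, while unshared TBBz regions reach 110 in NEDD4L, 100 in PPP3CA and 145 in GULP1. In PRKD1 the point at 270 is the start site, 252 bp from a DMSO region with 79 tags, and the next is at 116.

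The tags of the unshared TBBz regions were set against the DMSO threshold. At the depth of the DMSO library the same tags per 10M would reach the DMSO threshold of 11 for 67 of the 71, against 69.6% of all unshared TBBz regions. Over the 16112 shared regions the median ratio of TBBz to DMSO tags at equal totals was 1.71, and 18.3% of them had a ratio below 1. These ratios carry the difference between the libraries in the share of tags in regions, 12.6% with TBBz and 6.79% with DMSO. When that median ratio was divided out as well, 44 of the 71 would reach the DMSO threshold (62.0%), against 42.1% of all unshared TBBz regions, and 27 would not. By gene these were 14 of 25 in NEDD4L, 12 of 14 in PRKD1, 10 of 13 in PPP3CA and 8 of 19 in GULP1, so that in GULP1 fewer than 50% reached it. Not all unshared TBBz regions stood away from DMSO regions. Within 2 kb of a DMSO centre lay 1 in NEDD4L, 3 in PRKD1, 2 in PPP3CA and 3 in GULP1. The 12 in PRKD1 include its start site, with 270 tags, 252 bp from a DMSO centre. Per the file headers, the authors dropped 53.7% of the DMSO candidates and 35.3% of the TBBz candidates for lacking a 4-fold excess over the 10 kb around them. A site missing from the DMSO list is therefore not shown to be free of Pol II, and the part of this filter in the strings was not tested.

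Where both lists had a region, the ratio of tags varied among the genes. Of the 11 shared sites, 3 were at least 2-fold higher with TBBz at equal totals, against 35.2% of all shared regions, and all 3 were in NEDD4L. None of the 11 was at least 2-fold lower, against 1.01%. The median ratio of the 11 was 1.19, under the median of 1.71 over all shared regions. The 4 sites of NEDD4L, at 1.79 to 3.15, all lay above that median, but the interval of the lowest, 1.31 to 2.47, includes it. The PRKD1 start site, at 2.37 (1.83 to 3.08), is not among the 11, since its regions did not overlap. The start sites of PPP3CA and GULP1, at 1.17 and 1.07, lay below the median with intervals that do not reach 1.71. The same held for every shared site of PRKD1, with upper limits of 1.62, 1.15 and 1.12. It also held for the GULP1 site with 17 tags in each library, with an upper limit of 1.44. The last GULP1 site, at 1.67 (0.928 to 3.13), has an interval that includes the median. Both start sites stood early in the DMSO list, at places 110 and 304, and their TBBz tags were higher still, 339 to 346 and 245. Counting each position once may limit such numbers. A limit on the TBBz tags would lower the ratio, and one on the DMSO tags would raise it. The part of that limit in these ratios was not tested. In PPP3CA and GULP1 the interior thus held unshared TBBz regions while the ratio at the start site had an interval that includes 1. That does not show equal Pol II at these sites.

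**Figure D4:**
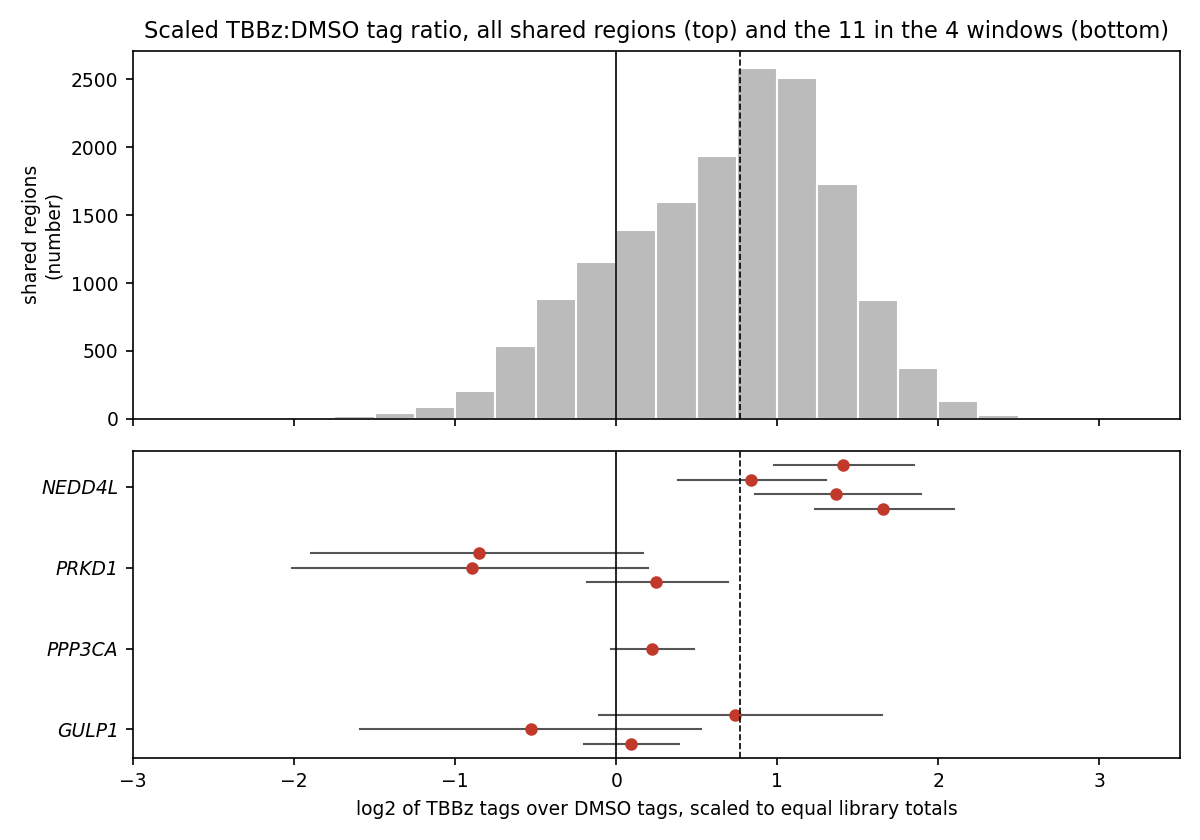
Top, number of shared Pol II regions of the whole lists by log2 ratio of TBBz to DMSO tags at equal library totals; bottom, the 11 shared sites of the 4 windows with 95% counting intervals. The solid line marks equal tags and the dashed line the median ratio of 1.71; the NEDD4L sites lie to the right of the dashed line and the PPP3CA start and the GULP1 start lie between the lines.

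In the windows CK2α was found at the upstream end of NEDD4L and PRKD1 only. NEDD4L had 2 CK2α regions, chr18:55711586-55711786 with 31 to 32 tags and chr18:55712210-55712410 with 33 to 34, and PRKD1 had the region at its start described above, at place 70 of the CK2α list. All 3 lay within 1 kb of the first DMSO region of the gene. GULP1 and PPP3CA had none in their windows, but chr2:189144829-189145029 with 21 tags was centred 71 bp outside the GULP1 window and 495 bp from the first TBBz region of that gene. Of the 82 TBBz regions, 2 overlapped CK2α (2.44%), against 19.4% of the whole TBBz list, and of the 26 DMSO regions 2 did, against 22.6%. The genes were selected for many TBBz regions, most of them away from the start sites, so nothing is read from these shares. The overlapping regions were those at the start sites of NEDD4L and PRKD1, so none of the TBBz regions farther into the 4 genes overlapped a CK2α region. CK2α was measured without inhibitor, and its binding with TBBz was not analysed here.

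Few regions stood just outside the windows. Within 100 kb outside the windows there were 5 TBBz, 4 DMSO and 1 CK2α regions. Downstream of NEDD4L stood TBBz regions at chr18:56085013-56085213 with 19 tags and chr18:56143336-56143536 with 15, with no DMSO region until 142 kb past the edge. Upstream of PRKD1 stood 3 TBBz regions with 19, 44 and 15 tags, the nearest at chr14:30454875-30455075, and downstream a DMSO region with 35 tags, chr14:30036738-30036938, was 3.16 kb past the edge. Next to PPP3CA the nearest was a DMSO region with 11 tags, chr4:101927182-101927382, 12.7 kb past the downstream edge. Next to GULP1 were DMSO regions with 11 tags, chr2:189143414-189143614, on the upstream side and with 14 tags, chr2:189495874-189496074, 31.0 kb past the downstream edge.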

How the data were processed

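Chromatin immunoprecipitation sequencing gave 3 region lists, 1 library each. Per the submitters' processing notes, Bowtie, HOMER and hg19 were used, with versions not given in the sources used here. The authors called regions with HOMER separately per library, per the file headers, in factor style, 200 bp wide and at least 500 bp apart, at a false discovery rate of 0.001, 4-fold above the surrounding 10 kb, with no control library in the command. The deposited score is 1 for every region, and start coordinates were raised by 1.

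Tags per region were recovered from list order and header totals, an approach chosen after the files were seen. The calculation was run on simulated lists sorted by the assumed order. Those lists cannot show whether the deposited lists follow that order, on which every tag value rests. Groups came from antibody and treatment labels. Overlap meant at least 1 bp shared, and strings had neighbours at most 20 kb apart. Intervals are 95% exact binomial, or converted from them, and cover counting error only, since 1 library per group gives no spread between replicates. The genes and definitions were chosen with earlier results of these data known. Positions to be named were fixed by a rule: first, last and earliest-listed regions, string ends, all DMSO and CK2α regions where a list had 6 or fewer, and nearest regions outside. Other positions in the text were chosen after their values were seen. Alternatives were equal list lengths, the first 50% of each list, window edges moved by 20 kb, other overlap and string distances, and an equal scaled threshold. Tables and intervals came from SciPy 1.17.1, pandas 2.3.3 and NumPy 2.4.6 under Python 3.11.15, and plots from Matplotlib 3.10.9.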

Additional observations from a re-analysis of the deposited data

How the results depend on the processing

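No paired analysis was possible because every condition is a single library. With equal list lengths, and with TBBz regions held to the DMSO threshold per 10M tags (added after the data were seen), the ratio of TBBz to DMSO regions in the windows was 2.96 and the share of TBBz regions without a DMSO partner was 87.0%. In the first 50% of each list the ratio was 1.67, the share without a DMSO partner was 53.3%, the longest strings of the 4 genes held 8 regions in all instead of 47, 80.0% instead of 59.8% of TBBz regions lay in the upstream 50% of the windows, and the median place in the list was 37.0% instead of 63.9%, the last by construction. The strings thus consist largely of regions from the second part of the TBBz list. With windows trimmed by 20 kb 0 CK2α regions remained, since all 3 lie near the starts. With DMSO centres counted within 2 kb the share without a partner was 75.6%, and with neighbours at most 10 kb apart the longest strings held 24 regions. Of the main results under these alternatives, 27 values stayed within their interval (counts within 1.5 times), the 8 given here did not, and none changed direction. Depth limits the weakest regions, where 13 tags with TBBz correspond to 9.0 tags at the DMSO depth.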

Other observations

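The order of the lists gave one more view of the weak regions. In GULP1 the DMSO regions chr2:189329836-189330036, chr2:189412131-189412331, chr2:189432257-189432457 and chr2:189450303-189450503 stood at places 18988, 18989, 18990 and 18991 of the DMSO list, next to each other, with 12 tags each. In NEDD4L the TBBz regions chr18:55807898-55808098 and chr18:55930423-55930623 and the region chr18:56085013-56085213 beyond the window stood at places 19656, 19657 and 19658 with 19 tags each. Neighbouring places in these lists are read here as equal tags sorted by position, so a difference in place between such regions carries no difference in strength.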
